A study of Mus musculus with 21 samples.

Results

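Short stretches of low DNA methylation lying more than 2000 and up to 10000 bp from a larger, CpG-rich one were described in mouse sperm. They number 2333 among the 19577 short low-methylated regions of the autosomes (11.9%), and among 28849 low-methylated regions in all. Together they span 1381466 bp. They were found by walking along the CpGs that had 5 or more reads. A CpG was called low where the reads pooled over it and its 2 neighbours were under 50% methylated, and low CpGs in a row, with gaps of at most 500 bp, formed a region. Regions of 30 or more such CpGs are called CpG-rich and those of 4 to 29 short, and a short region was chosen here when its edge lay more than 2000 and up to 10000 bp from the edge of the nearest CpG-rich region. Below, a class of distances written as 2000 to 4000 bp leaves out its lower and holds its upper bound. They were thus chosen by methylation level, read depth and distance, and are called proximal below. The 1499 short regions within 2000 bp of a CpG-rich region are called adjacent, and the 15745 beyond 10000 bp distal. Their low level at the CpGs that define them follows from this choice and is no finding.

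The sample was 1 bisulfite library of nucleosome-associated DNA from sperm of C57BL/6 mice, with no stated treatment or genetic change. Per the labels' protocols, sperm were gathered by swim-up, which keeps motile cells, and micrococcal nuclease cut the DNA between nucleosomes. DNA not held in nucleosomes was therefore largely removed before methylation was read, and the sources used here give neither the age of these mice nor the number pooled. The series has 21 samples, of which the other 20, from sperm and round spermatids, were not analysed here. With 1 library there are no replicates, no p-value is given, and intervals are 95% Wilson binomial intervals that cover counting error only. They treat each CpG read as independent although a read counts at every CpG it covers, so they are too narrow.

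In mammals most CpGs carry a methyl group on cytosine, and stretches that escape it are mainly CpG islands, which often hold promoters. Short unmethylated stretches with fewer CpGs lie at weaker promoters, at alternative start sites and at distal regulatory elements such as enhancers. In sperm most histones are exchanged for protamines, and the nucleosomes that stay have been reported mainly at unmethylated CpG-rich DNA.

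Promoters gave the sequences that show what such regions look like. RefSeq promoter sequences (GRCm38.p6, 250 bases before and 50 after each start site) were located in the CpG table by their spacing of CpGs alone, and 14666 of the 17846 with 6 or more CpGs were found at 1 place. The 250 bases before the start site are printed for 7 protein-coding genes whose promoter lay wholly inside a proximal region. Tcam1, Plek2 and Faiml had the most reads of all such promoters, 2410137M14Rik and Tekt2 the highest levels over all 300 bases among the others with 40 or more reads, and Srebf1 and Brd2 the most reads among genes that also have a promoter in the nearest CpG-rich region. Letters run 5′ to 3′ on the gene's strand. CG in capitals marks a CpG of the table with under 50% methylated reads, and all other bases are in lower case. No read minimum applies to the mark, which rests on 1 read at some CpGs of Srebf1 and Brd2.
Tcam1: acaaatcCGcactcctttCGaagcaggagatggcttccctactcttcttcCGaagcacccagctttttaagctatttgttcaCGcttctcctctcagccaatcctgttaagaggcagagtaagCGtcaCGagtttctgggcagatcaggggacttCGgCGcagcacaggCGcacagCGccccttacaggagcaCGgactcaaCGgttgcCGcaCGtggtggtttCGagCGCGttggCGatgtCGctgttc
Plek2: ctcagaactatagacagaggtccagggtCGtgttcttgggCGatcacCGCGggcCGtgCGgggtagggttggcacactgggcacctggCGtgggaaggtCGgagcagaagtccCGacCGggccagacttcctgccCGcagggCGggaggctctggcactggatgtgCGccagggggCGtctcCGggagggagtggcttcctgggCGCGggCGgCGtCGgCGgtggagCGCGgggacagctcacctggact
Faiml: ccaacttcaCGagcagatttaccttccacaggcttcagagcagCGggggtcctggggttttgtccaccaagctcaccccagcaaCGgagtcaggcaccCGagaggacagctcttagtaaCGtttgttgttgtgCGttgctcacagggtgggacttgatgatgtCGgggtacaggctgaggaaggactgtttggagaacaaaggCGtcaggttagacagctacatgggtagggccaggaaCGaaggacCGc
2410137M14Rik: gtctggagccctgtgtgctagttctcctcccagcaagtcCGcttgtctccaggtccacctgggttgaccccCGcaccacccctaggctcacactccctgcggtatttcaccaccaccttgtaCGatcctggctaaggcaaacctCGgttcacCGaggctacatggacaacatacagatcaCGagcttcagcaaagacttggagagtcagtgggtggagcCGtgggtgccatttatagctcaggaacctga
Tekt2: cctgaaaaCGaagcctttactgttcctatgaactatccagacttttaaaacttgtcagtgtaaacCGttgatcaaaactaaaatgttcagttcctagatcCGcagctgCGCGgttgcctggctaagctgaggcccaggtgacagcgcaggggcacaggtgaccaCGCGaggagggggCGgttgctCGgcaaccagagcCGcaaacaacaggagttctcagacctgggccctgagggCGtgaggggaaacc
Srebf1: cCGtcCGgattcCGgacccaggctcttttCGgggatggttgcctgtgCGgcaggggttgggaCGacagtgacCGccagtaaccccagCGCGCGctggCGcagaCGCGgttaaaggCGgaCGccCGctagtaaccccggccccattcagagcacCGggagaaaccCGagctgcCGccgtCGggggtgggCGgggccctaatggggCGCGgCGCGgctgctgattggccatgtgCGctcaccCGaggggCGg
Brd2: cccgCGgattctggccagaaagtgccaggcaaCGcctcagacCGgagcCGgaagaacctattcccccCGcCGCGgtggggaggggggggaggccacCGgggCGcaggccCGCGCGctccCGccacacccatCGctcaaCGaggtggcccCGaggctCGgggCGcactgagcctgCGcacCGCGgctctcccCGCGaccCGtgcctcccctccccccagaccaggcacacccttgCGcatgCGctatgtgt

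The promoter of Tcam1, a cell adhesion gene of the testis, lay at chr11:106137786-106138035 on the plus strand (mm9, positions as in the table). All 19 of its CpGs were listed and under 50%, and 2 of 162 reads were methylated (1.23%, interval 0.339 to 4.39). Plek2, which encodes a pleckstrin that binds membrane lipids, had its promoter at chr12:80007926-80008175 on the minus strand. All 23 CpGs were listed and under 50%, with 1 of 169 reads methylated (0.592%, 0.105 to 3.28). The whole region around the Tcam1 promoter (chr11:106137338-106138303, 28 defining CpGs) was less even. At its CpGs of 1 to 4 reads 32.3% of 31 reads were methylated, so most of the methylated reads of the region lay outside the promoter.

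Faiml had its promoter at chr9:99137659-99137908 on the minus strand, and it was of another kind. Its 10 CpGs had 146 reads, of which 32.9% were methylated (25.8 to 40.9), with each of the 10 CpGs under 50%. All CpGs of this region had 5 or more reads and so took part in the choice of it. The promoter of 2410137M14Rik (chr17:37118183-37118432, minus strand) had a similar level of 34.3% over 70 reads (24.2 to 46), with 7 of 8 CpGs under 50%. The sources used here do not say how reads that match several places were treated, so levels at genes with near-identical copies are uncertain. Tekt2, which encodes a tektin of the flagellar axoneme, had 13.2% over 76 reads (7.31 to 22.6) at chr4:126002891-126003140 on the minus strand, with 11 of 12 CpGs under 50%.

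Srebf1 encodes a transcription factor that drives lipid synthesis genes. Its promoter at chr11:60023974-60024223 (minus strand) held 30 CpGs, of which 29 were listed and 28 under 50%, and 1.16% of 86 reads were methylated (0.206 to 6.30). The region around it had 9 CpGs of 5 or more reads and so counted as short. Brd2, a bromodomain protein that binds acetylated histones, had 27 CpGs at chr17:34259553-34259802 (minus strand), 26 of them under 50%, and 10.1% of 99 reads methylated (5.58 to 17.6).

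**Figure D1:**
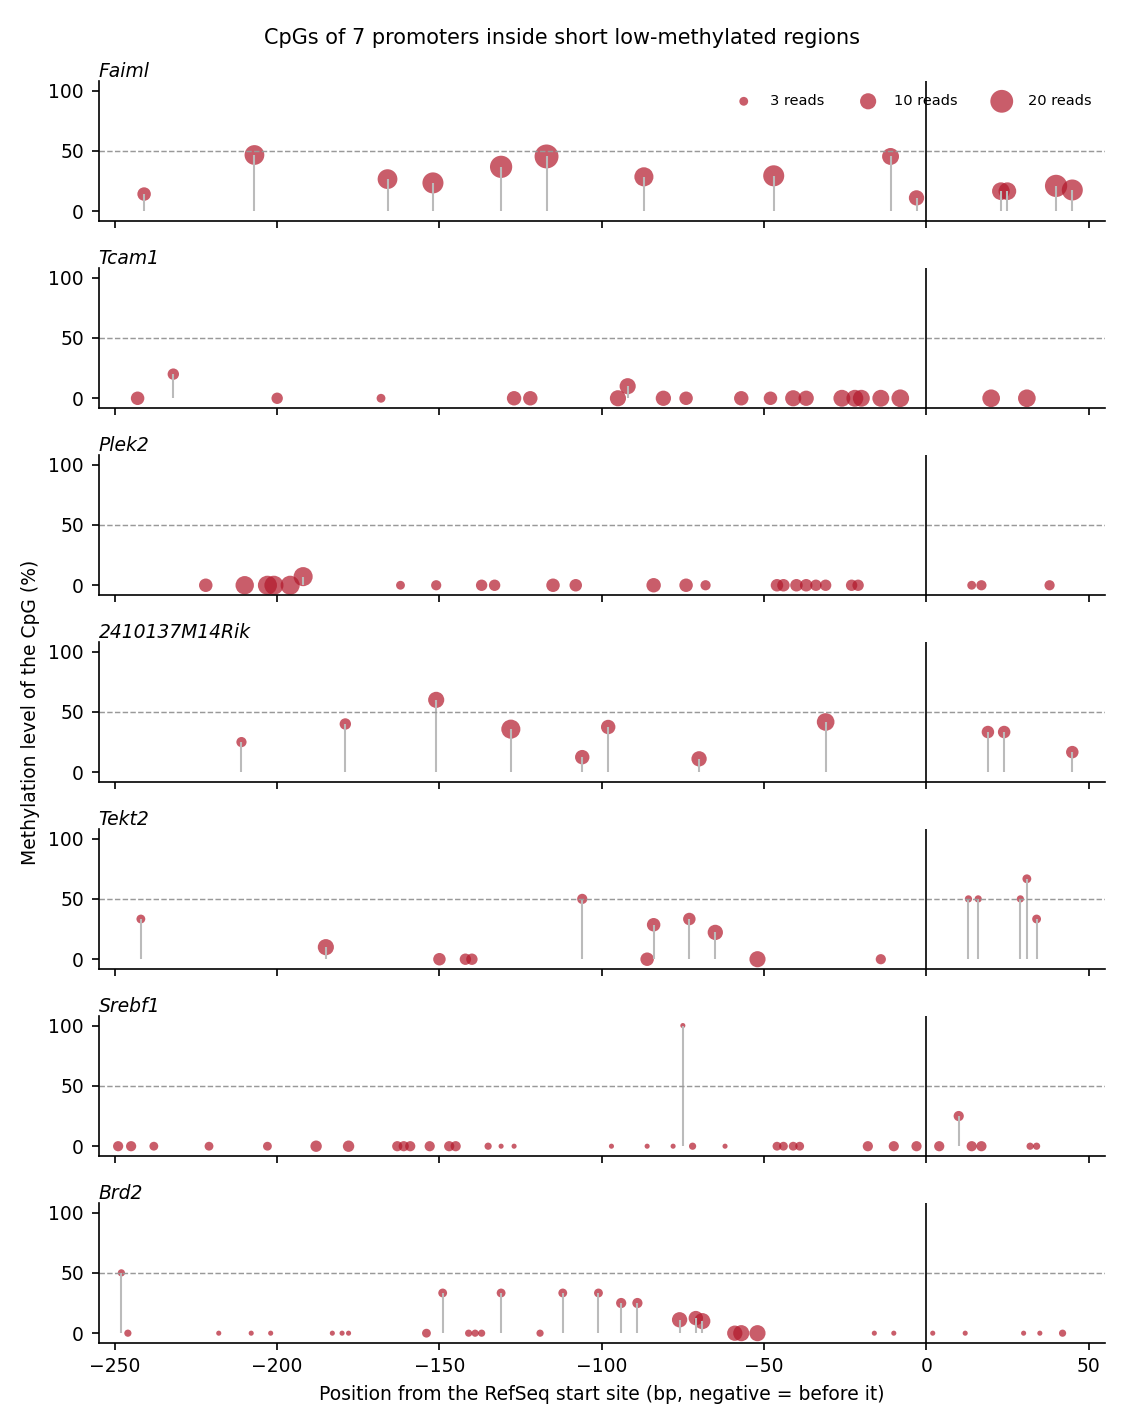
Methylation level of each listed CpG (percent) against its position from the start site (bp) in the 7 printed promoters, with dot size for the number of reads and a dashed line at 50%. Tcam1 and Plek2 lie at or near 0 throughout, whereas the CpGs of Faiml and 2410137M14Rik sit mostly between 10% and 50%.

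Letters known as binding motifs were searched in the same 250 bases on both strands. GGGCGG, the GC box bound by Sp1, was in 52.8% of the 451 distinct promoters that overlapped proximal regions, 68.5% of the 7783 in CpG-rich regions and 33.0% of all 31396 autosomal promoters of the table. CCAAT was in 35.3%, 30.6% and 33.7% of these sets. The E-box CACGTG was in 10.9%, 8.70% and 6.02%, the NRF1 core GCGCATGC in 4.66%, 4.50% and 2.24%, and the cAMP response element TGACGTCA in 2.44%, 2.96% and 1.58%. The median promoter had 13 CpGs per 250 bases in proximal regions, 21 in CpG-rich regions and 6 overall. Each motif that holds a CpG was thus in a larger share of both sets than of all promoters, which have fewer CpGs. Promoters with under 6 CpGs could not be located, so both sets lack them while the 31396 hold them. How much of the difference follows from this was not tested, and a match in the letters is not a bound site. Among the printed promoters, Plek2 and Srebf1 hold 2 GC boxes each and Tekt2 holds 1, and Srebf1 also holds 1 CCAAT. Brd2 holds 2 matches to the NRF1 core, which overlap, and Tcam1 holds 1 CCAAT and 1 E-box.

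Proximal regions were short and less dense in CpGs than CpG-rich regions. Their median length was 508 bp (quartiles 238 and 847), against 436 bp in adjacent, 464 bp in distal and 1520 bp in CpG-rich regions. The median number of defining CpGs was 9 (5 and 17), and of all listed CpGs 19 (9 and 35). Listed CpGs lay at a median density of 4.24 per 100 bp in proximal regions, compared with 3.76 in adjacent, 3.96 in distal and 6.51 in CpG-rich regions. The defining CpGs had a pooled level of 13.2%, which the rule set. The longest proximal region, chr7:50729815-50732702, measured 2888 bp with 73 listed CpGs. The densest of those with 10 or more defining CpGs was chr18:83080143-83080280, with 31 listed CpGs in 138 bp, 10% of 20 held-out reads methylated and 13 CpGs of more than 19 reads. With gaps of at most 250 bp in place of 500, the median length was 285 bp.

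Whether the regions are low at CpGs that had no part in choosing them was asked next. CpGs with 1 to 4 reads were below the read minimum and are called held-out. Pooled over the proximal regions, 11.1% of 79209 reads at 30346 held-out CpGs were methylated (10.8 to 11.3). The level was 12.4% in adjacent (12 to 12.7), 12.3% in distal (12.2 to 12.4), 3.97% in CpG-rich regions (3.94 to 4.01) and 80.2% over all autosomal held-out CpGs. Runs called in the same way but with levels of 50% or more, at the same 2000 to 10000 bp from a CpG-rich region, served as methylated comparators and had 88.5% (88.4 to 88.6). Proximal regions were therefore mostly unmethylated, close to the other short regions and above the CpG-rich ones. The level was 6.82% with a read minimum of 8 and 5.97% with a running level under 30%. A read can cover a held-out CpG and a defining CpG beside it. At the 1954 held-out CpGs more than 150 bp from every CpG of 5 or more reads, the level in proximal regions was 13.1% (12.1 to 14.1, 4245 reads), against 16.8% in adjacent, 15.6% in distal and 7.98% in CpG-rich regions.

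Single regions were spread widely around the pooled value. With 10 or more held-out reads, 1660 proximal regions could be given a level of their own, and 287 had no held-out CpG at all. The median was 8.44% (quartiles 2.17 and 24.8), against 10% in adjacent, 10% in distal and 3.03% in CpG-rich regions. Under 20% were 1164 of the 1660 (70.1%), beside 64.3% of all short regions with enough reads. Under 50% were 1541 (92.8%), beside 91.6% of all short regions. Both shares are near those of short regions at large. No methylated held-out read at all was found in 274 proximal regions, beside 16.2% of all short regions with enough reads. At the other end, 119 (7.17%) had a held-out level of 50% or more, beside 5.55% in adjacent and 8.85% in distal regions. Of these 119, 94 had only 4 to 9 defining CpGs. Off chromosome 18, and whatever their held-out reads, 1160 of 2251 proximal regions had 4 to 9.

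**Figure D2:**
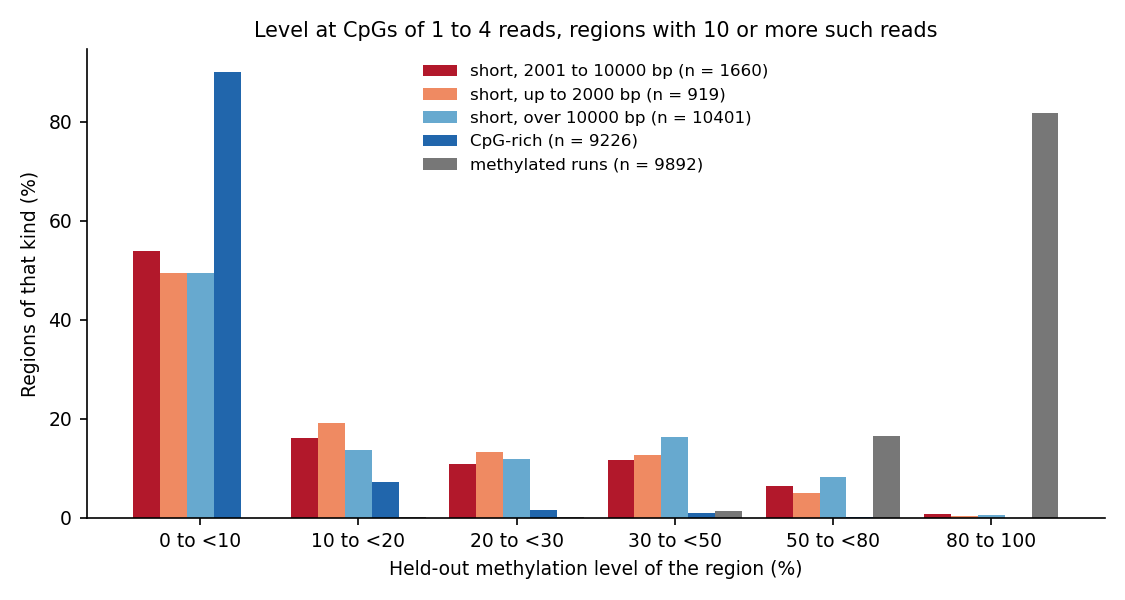
Share of regions (percent) in each class of held-out methylation level (percent), for proximal, adjacent and distal short regions, CpG-rich regions and methylated runs with 10 or more reads at CpGs of 1 to 4 reads. Of the proximal regions 54.0% lie under 10%, with a tail up to 100% that CpG-rich regions lack.

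The clearest low regions had many reads and no methylated one. The promoter of Dennd4b, which encodes a DENN domain protein, overlapped chr3:90068789-90070210, a region of 1422 bp and 90 listed CpGs where 0 of 161 held-out reads were methylated (upper bound 2.33%). The region chr7:16880178-16881209, without a matched promoter and 7820 bp from a CpG-rich region that overlaps the Ccdc9 promoter, had 0 of 142 (upper bound 2.63%). The promoter of the long noncoding RNA Gm11205 overlapped chr11:79517424-79518225, which had 0 of 134 (upper bound 2.79%). Of the 765 proximal regions with 40 or more held-out reads, 113 had none methylated, beside 16.3% of all short regions with as many.

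In a few regions the held-out CpGs went against the call. In chr3:102902673-102902980 the level was 26.6% at the defining CpGs (17.3 to 38.5, 64 reads) but 91.7% at held-out CpGs (80.4 to 96.7, 48 reads). The CpGs 59, 63 and 71 bp into this region had 0, 1 and 1 methylated reads out of 10, 9 and 9, whereas those from 104 to 132 bp had 2 to 4 reads each, all methylated. The CpGs of the methylated stretch were under the read minimum, so by the rule they could not end the run. Next came chr10:38887062-38887686 with 65.1% of 43 held-out reads and 45% at its 4 defining CpGs, and chr11:102520549-102521054 with 62.8% of 43 and 32.4% at its 5. Of the 1660 regions, 59 had a held-out level above the defining level with intervals apart, and 25 one below it.

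The held-out level differed with how many CpGs a region held. It was lower in each larger class, at 25.1% with 4 to 6 defining CpGs (24.2 to 26.0), 16.6% with 7 to 9, 11.3% with 10 to 14, 8.44% with 15 to 19, 6.83% with 20 to 24 and 5.81% with 25 to 29 (5.46 to 6.17). It was likewise lower at higher density, at 31.1% under 2 listed CpGs per 100 bp (28.9 to 33.4), 14.2% at 3 to 4, 7.86% at 4 to 6 and 6.43% at 8 or more (5.90 to 7.00). By length it was 23.8% up to 250 bp and 7.73% over 1000 bp. The rule also shapes the number of defining CpGs and the length. A higher CpG ends a run, so partly methylated stretches can be cut into short runs of few CpGs. How much of the order by number and by length follows from this was not tested. Levels on both sides of the upper limit of 29 CpGs were close. The 39 proximal regions with 29 defining CpGs had 5.88% (5.10 to 6.76), against 4.82% (4.54 to 5.13) in the 231 CpG-rich regions with 30, and the median length was 1108 bp in both. At the lower limit the 381 proximal regions with 4 defining CpGs had 29% (27.5 to 30.5).

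Distance within the range had no such trend. The held-out level was 10.9% at 2000 to 4000 bp (10.5 to 11.3), 11.4% at 4000 to 6000 bp (11.0 to 11.8), 11.2% at 6000 to 8000 bp (10.7 to 11.6) and 10.7% at 8000 to 10000 bp (10.3 to 11.2). The median was 9 defining CpGs in all 4 classes. Regions at the limits are given as a description. The 3 just inside the inner limit, 2002 to 2007 bp away, had 0 of 3, 4.88% of 41 and 6.52% of 46 held-out reads methylated, against 3.33% of 30, 1.52% of 66 and 16.7% of 54 in the 3 just outside it. The 3 just inside the outer limit, at 9992 to 9994 bp, had 21.7% of 60, 57.1% of 21 and 11.8% of 51, against 0 of 16 and 10% of 20 in 2 just outside it and no held-out read in another.

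Short regions were more frequent near CpG-rich regions. Per 10000 CpGs of 5 or more reads outside CpG-rich regions, there were 92.3 short regions at 2000 to 10000 bp (exact Poisson interval 88.6 to 96.1), against 59.1 beyond. In steps the rate was 293 within 1000 bp, 98.3 at 1000 to 2000 bp, 102.6 at 2000 to 4000 bp, 91.7 at 4000 to 6000 bp, 93.2 at 6000 to 8000 bp, 80.4 at 8000 to 10000 bp, 83.3 at 10000 to 20000 bp, 75 at 20000 to 50000 bp, 65.5 at 50000 to 100000 bp and 43.9 beyond 100000 bp. The largest drop lay at 1000 bp, and across and beyond the proximal range the rate was lower farther out, though not at every step. The rule itself makes some short regions beside CpG-rich ones, since a gap over 500 bp or 1 higher CpG divides a run, and how many arose so was not tested.

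The share of proximal regions that overlapped a matched promoter was near that of all short regions. Of the 2251 proximal regions on chromosomes with promoter sequences, 363 overlapped a matched promoter (16.1%, exact binomial interval 14.6 to 17.7), beside 17.5% of all short regions. The share was 7.71% in adjacent regions (6.39 to 9.21), 18.6% in distal regions (18 to 19.3) and 63.0% in CpG-rich regions (62.0 to 64.0). Within the proximal range it was 12% at 2000 to 4000 bp, 16.7% at 4000 to 6000 bp, 17.0% at 6000 to 8000 bp and 20.4% at 8000 to 10000 bp. By size, 5.78% of proximal regions with 4 to 9 defining CpGs had a promoter, 20% of those with 10 to 19 and 38.3% of those with 20 to 29. In distal regions these shares were 7.05%, 25.6% and 47.8%. The start site itself lay inside the region for 390 of the 452 promoters. They belonged to 399 genes, of which 344 code for proteins and 55 are long noncoding RNAs. The protein-coding share was 86.2%, beside 76.3% for adjacent, 80.9% for distal and 86.4% for CpG-rich regions, so it was not particular to proximal ones. A promoter with under 6 CpGs could not be located, so these shares are lower bounds.

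Regions with a promoter were less methylated than those without. The 363 with a promoter had a held-out level of 4.57% (4.31 to 4.84) and the 1888 without had 13.8% (13.5 to 14.1). Regions with a promoter were also larger, with a median of 18 defining CpGs against 8. Within classes of size the gap was 8.18% against 22.5% at 4 to 9 defining CpGs, 4.81% against 11.8% at 10 to 19, and 3.81% against 7.84% at 20 to 29. Reads per listed CpG were lower with a promoter, at 4.25 against 4.77.

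**Figure D3:**
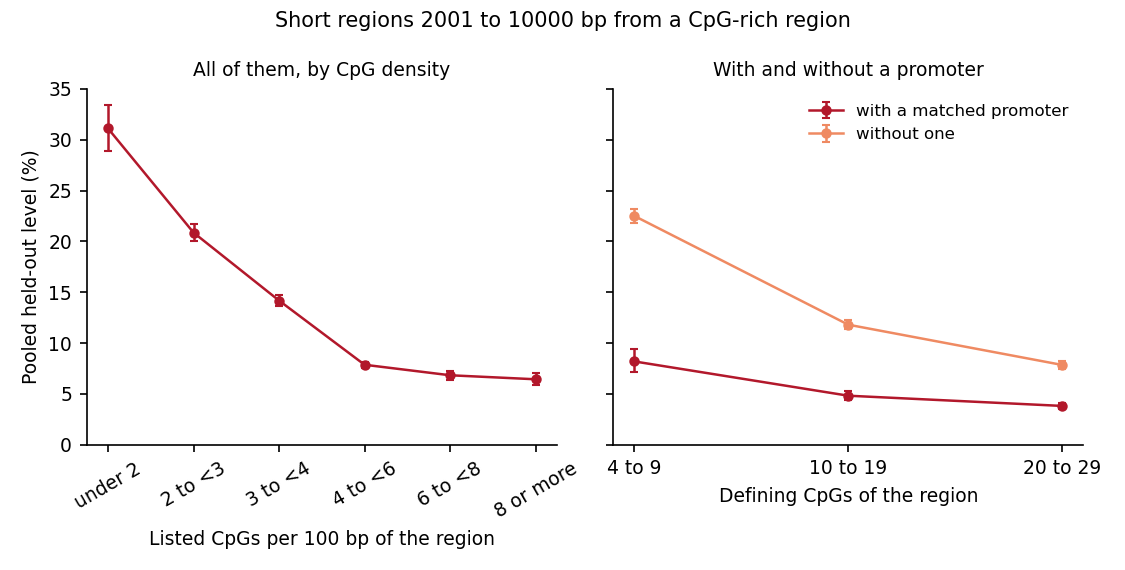
Pooled held-out level (percent, with 95% Wilson intervals) of proximal regions by listed CpGs per 100 bp (left) and by number of defining CpGs for regions with and without a matched promoter (right). The level is 6.43% in the densest class, against 31.1% in the sparsest, and lies lower with a promoter in all 3 size classes.

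Promoters in proximal regions had fewer reads than promoters in CpG-rich regions with as many CpGs, an order that the rule favours by counting CpGs of 5 or more reads. The depths are therefore a description only. The levels of these promoters, taken over all listed CpGs, include the CpGs that chose the regions. Those of 20 to 29 CpGs had a pooled level of 2.81% in proximal regions (146 promoters, 2.54 to 3.11), 1.97% in CpG-rich regions (2727 promoters, 1.93 to 2.02) and 3.96% where they overlapped no low-methylated region at all (185 promoters, 3.58 to 4.39). Their depth was 3.73 reads per CpG of the sequence in proximal regions, 4.80 in CpG-rich regions and 2.05 outside low-methylated regions. For promoters of 30 or more CpGs the depths were 3.35, 5.31 and 1.95 and the levels 1.53%, 1.88% and 2.17%. For those of 6 to 9 CpGs the depths were 4.51, 4.83 and 3.42 and the levels 17.6%, 10.3% and 69.0%. The rule counts CpGs of 5 or more reads, so depth bears on whether a promoter lies in a proximal, a CpG-rich or no region at all; the size of its part was not tested. With a read minimum of 8 in place of 5, the rule gave 680 proximal regions in place of 2333.

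Coverage is the library's measure of how much nucleosomal DNA was recovered, with amplification and mapping also in it, and proximal regions had about as much as methylated runs. Over listed CpGs of up to 19 reads the mean was 4.64 reads in proximal regions, 4.92 in adjacent, 4.78 in distal, 5.52 in CpG-rich regions and 4.57 in methylated runs. The ratio of proximal regions over methylated runs was 1.01, with a mean over the 19 autosomes of 1.03 ± 0.034 (SD) and values above 1 in 14 of them. The ratio was not the same at all densities. It was 1.09 under 2 listed CpGs per 100 bp, 1.11 at 2 to 3, 1.03 at 3 to 4, 0.882 at 4 to 6 and 0.758 at 6 or more. Both kinds of region are built from CpGs of 5 or more reads, which lifts the coverage of both. In methylated runs of the densest class 85.5% of listed CpGs reached 5 reads, against 47.9% in proximal regions, so this selection was stronger there and its part in the ratio was not tested. A CpG of more than 19 reads lay in 39 proximal regions. The 3 best covered were small, with 15 to 16.8 reads per listed CpG over 4 or 5 CpGs and defining levels of 34.7% to 43.3%.

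Methylation climbed over the first 1000 to 1500 bp outside a proximal region. Toward the CpG-rich region the held-out level was 22.4% at 1 to 100 bp from the edge, 29% at 100 to 200 bp, 44.8% at 300 to 500 bp, 60.7% at 500 to 1000 bp and 73.3% at 1000 to 1500 bp. On the side away from it the levels were 22.5%, 28.2%, 43.0%, 62.1% and 74.4% at the same distances. The 2 sides parted at 1500 to 2000 bp, with 72.3% toward the CpG-rich region (71.7 to 72.9) and 77.5% away (76.9 to 78.1). Around distal regions the level at that distance was 81.4% toward and 81.9% away. Around methylated runs at 2000 to 10000 bp it was 81.2% toward and 85.7% away, so such a gap was not particular to proximal regions. For regions little more than 2000 bp from a CpG-rich region, the inner window also ends near that region's edge. Levels just outside the called edges were thus between those inside and those farther out.

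**Figure D4:**
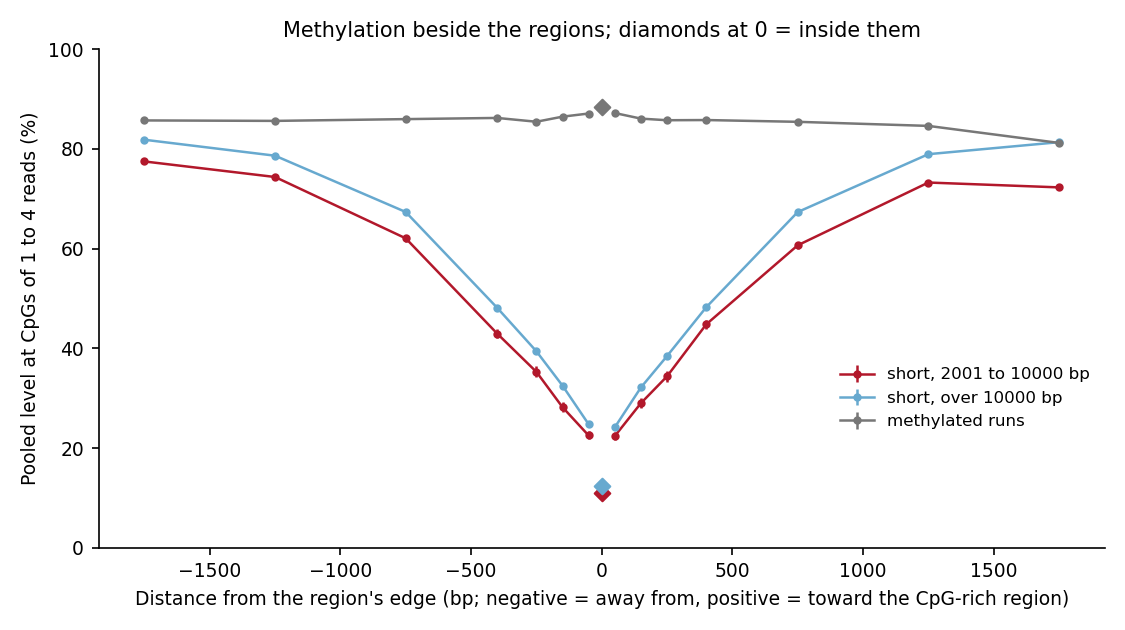
Pooled methylation (percent) at CpGs of 1 to 4 reads against distance from the region's edge (bp, positive toward the nearest CpG-rich region), with 95% Wilson intervals; diamonds give the level inside. Proximal regions run from about 22% at the edge to 72.3% and 77.5% at 1500 to 2000 bp, while methylated runs stay between 81.2% and 87.2%.

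The stretch between a proximal region and its CpG-rich neighbour was read with all called low regions taken out. This raises its level by an amount that was not tested. With 100 bp left out beside each edge and all low regions excluded, its held-out level was 65.8% (65.6 to 65.9, 241346 reads), against 72.7% in a stretch of equal length on the other side (72.5 to 72.8). It was the lower of the 2 in 1480 of 2318 proximal regions (63.8%, exact interval 61.9 to 65.8). Stretches of proximal regions that share a CpG-rich neighbour can overlap. Some CpGs are then counted more than once, so these intervals are too narrow. By distance the level between was 53.3% at 2000 to 4000 bp and 71.7% at 8000 to 10000 bp, against 64.6% and 77.4% on the other side. The level between was 50.1% with gaps of at most 250 bp. It was 30.1% with a read minimum of 8, where CpGs of up to 7 reads are held out. Only the inner stretch ends at a CpG-rich region. With 1000 bp left out beside each edge, the levels were 76.9% between and 78.9% on the other side, and the stretch between was lower in 1155 of 2167 (53.3%). In 523 of 2330 proximal regions with enough reads (22.4%), the stretch between was itself under 50%, against 323 of 2324 (13.9%) on the other side.

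Most CpG-rich regions were the nearest neighbour of no proximal region. Of 9272, 1710 (18.4%) were the nearest neighbour of at least 1 proximal region, 1258 of 1, 323 of 2, 96 of 3, 26 of 4, 6 of 5 and 1 of 7. CpG-rich regions that were such a neighbour had a held-out level of 4.61% (4.53 to 4.70), a median length of 1548 bp and a promoter share of 55.4%. The others had 3.83% (3.79 to 3.87), 1515 bp and 64.8%. Another proximal region lay within 1000 bp of 541 of the 2333. The rule can divide a low stretch into several regions, and no matching count for other short regions is given. The number is thus a description only.

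The most proximal regions, 7, surrounded chr6:52112745-52115942, a CpG-rich region of 3198 bp overlapped by the promoter of Hoxa2, a homeobox gene that patterns the hindbrain and branchial arches. They had 7 to 28 defining CpGs, and 6 of them with 35 to 62 held-out reads had levels of 8.11% to 17.1%, against 15.7% of 127 reads in the CpG-rich region itself. The last had 37.5% of 8 reads. The 4 on the upper side lay at 2647, 3956, 6475 and 9291 bp, and the third of these overlapped the promoter of the noncoding RNA Gm15050. The second such neighbourhood, with 5 proximal regions, was chr8:3500071-3500947, which overlaps the promoter of Mcoln1, a lysosomal cation channel. All 5 lay on 1 side. The farthest, chr8:3492634-3493509 at 6562 bp, overlapped the promoter of the zinc finger gene Zfp358 and had 1.27% of 79 held-out reads methylated. The other 4 were small, with 4 to 8 defining CpGs and levels of 22.2% to 44.4% over 8 to 18 reads where they had any, against 0 of 96 reads in the CpG-rich region. These 4 lay close together, at 3495821-3495909, 3496020-3496160, 3496359-3496529 and 3496554-3497051. They may be parts of 1 stretch that the rule divided, which was not tested. The count of 5 is thus a description only.

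Proximal regions lay upstream of the neighbouring gene's start site more often than downstream. Where the nearest CpG-rich region had promoters on 1 strand only, 610 of 1057 proximal regions were upstream of them (57.7%, exact interval 54.7 to 60.7). For methylated runs in the same range the share was 44.6% (43.6 to 45.6). It was 57.7% as well for short regions at 10000 to 20000 bp (54.7 to 60.7), so it was not particular to the proximal range. Each of the 4 distance classes had a share between 57.1% and 58.0%. Upstream proximal regions had a held-out level of 9.68% (9.29 to 10.1) and downstream ones 11.9% (11.4 to 12.4). The order was the other way at 6000 to 8000 bp, with 10.9% upstream and 10.4% downstream, and with a promoter in the region the levels were 4.56% and 4.88% with overlapping intervals.

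In 22 genes 1 start site lay in a proximal region and another in its nearest CpG-rich neighbour. The start site in the proximal region was downstream of the other in 14 genes and upstream in 8, at 2707 to 11058 bp. At held-out CpGs of these promoters inside the regions, 6.01% of 616 reads were methylated in the proximal promoters (4.39 to 8.17), against 1.43% of 697 in the CpG-rich ones (0.781 to 2.62). Of the 37 methylated held-out reads in proximal promoters 12 were from Celf5, and without it the levels were 4.19% and 1.47%. Over all listed CpGs, which include those that chose the regions and some outside them, the level was 6.23% in the proximal promoter (5.13 to 7.54, 1542 reads) and 2.79% in the CpG-rich one (2.22 to 3.50, 2583 reads). It was higher in the proximal promoter in 14 genes and lower in 8. The proximal promoter had fewer CpGs in 14 genes, with a median of 16 against 23, and fewer reads per CpG in 13.

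Single genes are described by all listed CpGs of the 300 bases, with no test. The intervals of the 2 promoters were apart in 3 genes, each with the proximal promoter higher. Celf5, an RNA-binding protein of the CELF family, had 52.3% of 44 reads in its proximal promoter (37.9 to 66.2) against 1.21% of 165 in its CpG-rich one (0.333 to 4.31). This proximal promoter, chr10:80936984-80937283, runs past the region's end at 80937141, and 2 of its 12 listed CpGs were under 50%. Another Celf5 promoter that overlaps the same region had 6.38% of 47 reads methylated. Jade1, a scaffold of a histone acetyltransferase complex, had 25.5% of 51 against 5.53% of 199, and Kcnn1, a calcium-activated potassium channel, had 20% of 35 against 1.79% of 56. The proximal promoters of Jade1 and Kcnn1 also run past their region's end. At held-out CpGs inside the regions, 12 of 20 reads were methylated against 0 of 16 in Celf5. The counts were 4 of 32 against 1 of 26 in Jade1, and 1 of 18 against 0 of 22 in Kcnn1. In the remaining genes the intervals overlapped. Srebf1 had 1.89% of 106 against 3.85% of 52, with start sites 10156 bp apart. The mitochondrial fatty acid synthesis gene Oxsm had 0.962% of 104 against 0.769% of 130, the RNA-binding Elavl2 4.21% of 95 against 1.65% of 121, and Brd2 9.52% of 105 against 1.2% of 83. In 4 genes, Fam110a, Tor1aip2, Kcnk10 and Ddr1, no methylated read was seen in the proximal promoter over 37 to 71 reads.

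**Figure D5:**
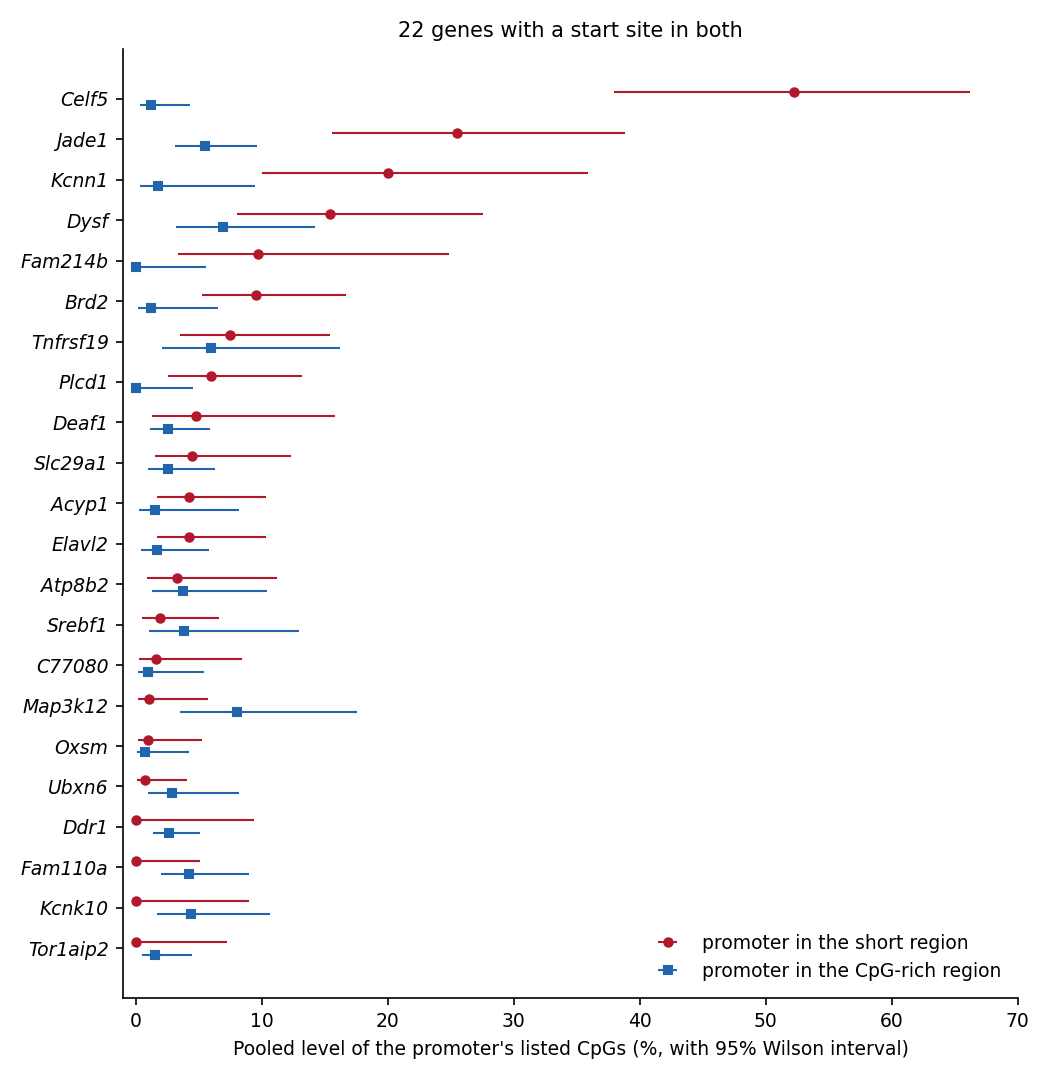
Pooled level (percent) over the listed CpGs of 2 promoters of each of 22 genes, with 95% Wilson intervals. Circles are promoters with the start site in a proximal region and squares those in its CpG-rich neighbour; Celf5, Jade1 and Kcnn1 have circles whose intervals lie to the right of the square's.

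Both the number of proximal regions and their level varied between autosomes. Chromosome 16 had 45 proximal regions and chromosomes 7 and 11 had 208 each, and per 100 CpG-rich regions there were 14.8 on chromosome 16 and 35.2 on chromosome 10. The held-out level averaged 11.2% ± 2.53 (SD, 19 autosomes), with 7.04% on chromosome 16 as the lowest and 17.6% on chromosome 18 as the highest. It was below that of distal regions of the same chromosome on 16 of 19.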

How the data were processed

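Per the file headers, the deposited table lists CpGs with 2 raw counts each, of total and of methylated reads; neither is shown as normalized by the authors. Bowtie and mm9 are named in the submitters' processing notes; read length, duplicate handling, alignment settings and conversion were not given in the sources used here. The library held 15544856 CpGs and 60995624 CpG reads, at a median depth of 3 reads, and 23.1% of its CpGs had 5 or more. Whether its coordinates start at 0 or 1 is unstated, so printed positions may be 1 bp off.

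Regions were called as the report describes, and their levels taken from reads pooled over held-out CpGs. Intervals are 95% Wilson or, for shares of regions, exact binomial. The exact intervals treat regions with the same CpG-rich neighbour as independent. The regions and lists were chosen with earlier results of these data known, and gene names by CpG spacing were added after the data were seen. A promoter was matched where 6 or more CpGs and at least 80% of its CpGs were listed at 1 place with no other listed CpG in its 300 bases, and 14631 of 14666 kept the spacing of a neighbouring promoter. The remaining 35 were left out. No coordinates were converted between builds. Regions are named by rule: the 3 longest, densest, lowest, highest, best covered and nearest each limit, and the 2 CpG-rich regions with the most members. The region caller and the promoter match were tested on simulated data. Python 3.11.15, numpy 2.4.6, pandas 2.3.3, scipy 1.17.1 and matplotlib 3.10.9 were used. Alternatives were other read minimums, levels, gaps, CpG limits and choices of CpGs.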

Additional observations from a re-analysis of the deposited data

How the results depend on the processing

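No paired analysis was possible because the values come from 1 library and from no test. The number of proximal regions was 3206 at a read minimum of 4, 680 at 8, 1699 with a running level under 30%, 2822 and 2183 with gaps of at most 250 and 1000 bp, 2427 with CpG-rich regions from 20 CpGs and 2284 with the level of the CpG alone. In that order of settings, the held-out level was 15.3%, 6.82%, 5.97%, 8.95%, 12.8%, 14.2% and 8.70%. The level of the stretch to the CpG-rich region was 73.7%, 30.1%, 61.1%, 50.1%, 73.5%, 67.1% and 64.0%. At a read minimum of 8, CpGs of up to 7 reads enter that stretch. The median length was 450.5, 490.5, 469, 285, 669, 421 and 445 bp, the coverage ratio over methylated runs 1.05, 0.892, 1.03, 0.989, 1.12, 0.992 and 1.02, and the number of short regions per 10000 CpGs at 2000 to 10000 bp 66.4, 315.8, 69.8, 119.5, 85.2, 78.2 and 91.8. With held-out CpGs of 1 or 2 reads only, the level was 11.0% inside and 64.4% in the stretch. Over all listed CpGs the coverage ratio was 1.07, and as a ratio of medians over regions 1.01. After the data were seen, CpGs over 150 bp from every CpG of 5 or more reads (13.1%), 1000 bp left out beside each edge (76.9%) and the settings for the rate were added. The cause of these shifts was not tested. With a median of 3 reads, single CpGs are not readable, and unmethylated DNA of low depth is missed.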

Other observations

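By the same rule the X chromosome had 4 short regions at 2000 to 10000 bp from a CpG-rich region, with 0 of 119 held-out reads methylated (upper bound 3.13%), 9 adjacent ones and 560 distal ones, beside 36 CpG-rich regions. The distal ones had a held-out level of 5.81% (5.51 to 6.12), against 12.3% in those of the autosomes, and the CpG-rich ones 3.18% (2.76 to 3.67), against 3.97%. Depth differed too, with 3.94 reads per listed CpG in distal and 4.04 in CpG-rich regions of the X, against 4.78 and 5.52 on the autosomes. The minimum of 5 reads was the same, so it is stricter on the X. Its part in these counts and levels was not tested. The regions of the X were not part of any comparison above.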
